A study of Mus musculus with 12 samples.

Results

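The BCL2 family was described in mouse bone marrow leukemic cells that carry MLL-AF9 (MA9), a fusion oncogene of acute leukemia. The 10 genes, taken by symbol, were the pro-survival *Bcl2*, *Bcl2l1*, *Mcl1* and *Bcl2a1b*, the effectors *Bax* and *Bak1*, and the BH3-only genes *Bcl2l11*, *Bbc3*, *Pmaip1* and *Bid*. Of these, 9 had a row among 25263 symbols, and all 9 passed the filter of a mean of at least 1 FPKM over the libraries that left 13169 symbols for testing. *Bcl2a1b* had no row under that symbol and was not analysed here. All 12 libraries came from adult MA9 cells cultured overnight with IL-3, IL-6 and GM-CSF at 10 ng/mL each and SCF at 100 ng/mL, infected with a retrovirus and sorted for high GFP. WT-GFP and WT-Cre cells had a wild type Hoxa cluster on a C57BL/6 background and received the control GFP virus or Cre recombinase. Hoxa-flox and Hoxa-del cells had a floxed Hoxa cluster on a C57BL/6J background and received the control virus or Cre, respectively. Each group had 3 libraries. Whether the 3 were separate cultures or animals is not said in the labels, so the tests reflect the spread among libraries, which may be technical.

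Proteins of this family decide whether the outer mitochondrial membrane is opened, the step that commits a cell to intrinsic apoptosis. The effectors BAX and BAK1 form the pore, the pro-survival proteins hold them in check, and the BH3-only proteins bind and block the pro-survival proteins or activate the effectors directly. MCL1 is a short-lived protein on which many myeloid cells and acute myeloid leukemias depend, and BCL2 is the target of the drug venetoclax.

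Most of the members hold a recognisable BH3 core, a leucine followed after 3 residues by a small residue and an aspartate. It is shown as codons because the binding of one family member to another turns on this stretch. Capitals mark the codon of the leucine and the codons of the glycine or alanine and of the aspartate. The stretches are 8 codons long, read 5′ to 3′ from GENCODE M21 coding sequence (GRCm38).
Bcl2: CTCcgccgggctGGGGATgacttc
Bcl2l1: CTGagagaggcaGGCGATgagttt
Mcl1: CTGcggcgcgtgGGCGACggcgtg
Bax: CTCcggcgaattGGAGATgaactg
Bak1: CTTgctctcatcGGAGATgatatt
Bcl2l11: CTGcggcggatcGGAGACgagttc
Bbc3: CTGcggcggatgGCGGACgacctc
Bid: CTCgcccaaataGGCGATgagatg
Of 11 genes searched, these 8 held the pattern, each once. The other 3, with no match to these letters, were *Bcl2a1a*, *Bcl2a1b* and *Bcl2a1d*. *Pmaip1* was not searched. In *Bbc3* the small residue was alanine. The first codon shown was codon 194 of the *Mcl1* coding sequence and codon 90 of both *Bcl2l1* and *Bid*.

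Estimated depth ran from 3.93 M fragments (WT-Cre 2) to 18.6 M (WT-GFP 3). The 8 Hoxa genes with a row summed to between 292 and 322 FPKM in the WT libraries, 505 to 528 in Hoxa-flox and 170 to 289 in Hoxa-del, so the target was lower after Cre in every floxed library but not near 0. The 6 floxed libraries fell into 2 sets that crossed the design, apart on a first principal component that held 64.3% of their variance. Set A was Hoxa-flox 3, Hoxa-del 1 and Hoxa-del 3, with 88.5, 84.6 and 93.2 FPKM of the proliferation marker *Mki67*. Set B was Hoxa-flox 1, Hoxa-flox 2 and Hoxa-del 2, with 16.4, 14.9 and 17.8 FPKM. The WT libraries had 65.1 to 78.2 FPKM. The part of the sets in the results below was not tested beyond the values given beside them. Of 6 markers of the leukemic myeloid cells, *Ptprc*, *Itgam*, *Elane* and *Spi1* measured at least 53.9 FPKM in every library. *Mpo* ran from 179.7 to 326 FPKM in the WT libraries, 3.80 to 31.1 in Hoxa-flox and 12.46 to 407 in Hoxa-del. *Csf1r* ran from 36.9 to 42.0 FPKM in the WT libraries, 28.6 to 30.5 in set B and 4.53 to 8.68 in set A. Markers of T, B and erythroid cells, each list summed apart, came to under 1 FPKM in every library, with no row for *Ms4a1* and *Hbb-bs*. Those of stroma and endothelium summed to 11.6 to 13.8 FPKM in the WT libraries and 18.4 to 45.8 in the floxed, through *Pecam1*, which was called higher in both comparisons of genotypes (limma, adjusted p = 0.00545 and 0.0116).

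Levels in FPKM are scaled to transcript length, so genes can be ordered within a library. *Mcl1* stood first among the members in every library, followed by *Bak1* and *Bax*, whose ranges overlapped in all 4 groups. *Bcl2l1*, *Bid*, *Pmaip1*, *Bcl2l11* and *Bbc3* formed a middle range with group means from 9.51 to 29.7 FPKM. In WT-GFP, *Bcl2l1* (23.8 ± 1.71 FPKM) and *Bid* (22.2 ± 0.523) overlapped and stood above *Pmaip1* (17 ± 1.39), *Bbc3* (16.1 ± 1.71) and *Bcl2l11* (15.3 ± 2.04), which overlapped each other (SD, n = 3). In Hoxa-flox, *Bid* (29.7 ± 1.52) stood above *Bcl2l1* (18.9 ± 3.17) without overlap. *Bcl2l11* (9.51 ± 1.75) had the lowest mean of this range there but overlapped *Bbc3* (13.5 ± 3.91). *Bcl2* was last in every library, at 0.965 to 3.34 FPKM. Of the summed FPKM of *Bcl2*, *Bcl2l1* and *Mcl1*, *Mcl1* supplied 86.0% ± 0.157 and 83.6% ± 2.00 in WT-GFP and WT-Cre. It supplied 90.5% ± 2.18 and 88.1% ± 2.57 in Hoxa-flox and Hoxa-del (SD, n = 3). *Bcl2* supplied 0.853% ± 0.117, 0.972% ± 0.259, 0.694% ± 0.377 and 1.38% ± 0.883 in the same order. Other pro-survival genes, such as *Bcl2l2* at 76.0 to 103 FPKM, are outside this sum, so the shares hold among these members only.

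**Figure D1:**
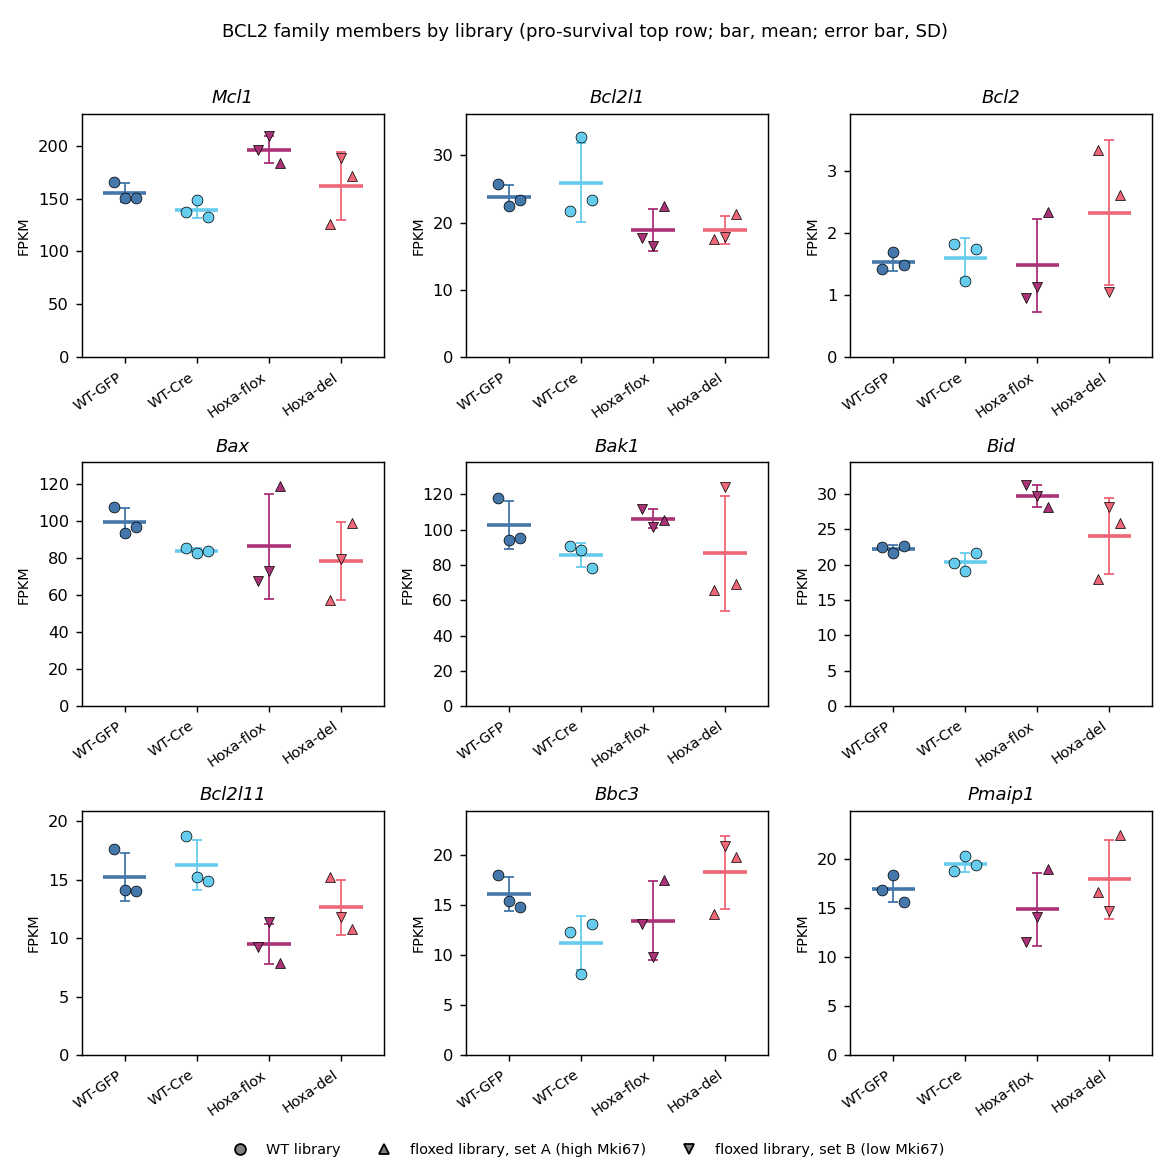
Level of each of the 9 members in FPKM (y axis, linear from 0) by group (x axis). Symbols are libraries (circles, WT; triangles pointing up and down, set A and set B of the floxed cells), bars are means and error bars SD of n = 3. The 3 Hoxa-flox libraries lie below every WT-GFP library for *Bcl2l11* and above every one for *Mcl1* and *Bid*.

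*Mcl1* (chr3:95658788-95663176, plus strand, GRCm38, as are all positions below) measured 166, 150.2 and 150.4 FPKM in WT-GFP 1, 2 and 3, and 137, 148 and 133 in WT-Cre. It measured 196, 209 and 183 FPKM in Hoxa-flox and 126, 188 and 171 in Hoxa-del. All Hoxa-flox libraries were thus above all WT-GFP libraries, while Hoxa-del ran from below the lowest WT-Cre value to above the highest. The difference Hoxa-flox minus WT-GFP was 0.33 ± 0.16 on the log2(FPKM + 1) scale (SE, adjusted p = 0.144, limma) and Hoxa-del minus Hoxa-flox was -0.30 ± 0.16 (adjusted p = 0.729), neither past the threshold of 0.05. *Mcl1* also separated the sets, at 126 to 183 FPKM in set A and 188 to 209 in set B. The sets did not overlap for 3 of 9 members (*Mcl1*, *Bcl2* and *Pmaip1*), against 54.8% of all symbols tested. The sets were drawn from the tested symbols, with the members and the other genes listed in this report left out. The shares are therefore not on an equal footing. *Pmaip1* counts here by the row used, as its second row overlapped between the sets.

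*Bcl2l1*, which encodes BCL-XL (chr2:152780668-152831728, minus strand), measured 25.7, 22.4 and 23.3 FPKM in WT-GFP and 21.8, 32.7 and 23.4 in WT-Cre. It measured 17.7, 16.5 and 22.5 FPKM in Hoxa-flox and 17.6, 17.9 and 21.3 in Hoxa-del. The highest value was that of WT-Cre 2, the shallowest library, and all Hoxa-del libraries were below all WT-Cre libraries. The difference Hoxa-del minus WT-Cre was -0.42 ± 0.17 (log2, SE, adjusted p = 0.0977, limma) and Hoxa-flox minus WT-GFP was -0.33 ± 0.17 (adjusted p = 0.189), where the groups overlapped.

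*Bcl2* (chr1:106538178-106714274, minus strand, overlapped on the same strand by *Gm37053* and *Mir3473f*) measured 1.42, 1.69 and 1.49 FPKM in WT-GFP and 1.83, 1.23 and 1.74 in WT-Cre. It measured 0.965, 1.14 and 2.35 FPKM in Hoxa-flox and 3.34, 1.05 and 2.61 in Hoxa-del. The floxed libraries split by set rather than by virus: the 3 of set A lay above every WT library and the 3 of set B below every one. The 2 groups of floxed cells overlapped, with Hoxa-del minus Hoxa-flox at 0.40 ± 0.28 (log2, SE, adjusted p = 0.745, limma). Within set B the difference was 0.00 and within set A 0.24, with 1 or 2 libraries a side and no test. In the shallowest library the *Bcl2* level rested on about 34.7 fragments, a counting error of 17.0%.

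*Bax* (chr7:45461697-45466898, minus strand, overlapped on the same strand by *Gm45808*) measured 108, 93.3 and 97 FPKM in WT-GFP and 85.3, 82.5 and 83.8 in WT-Cre. It measured 67.4, 72.8 and 119 FPKM in Hoxa-flox and 57.2, 79.4 and 98.9 in Hoxa-del. The SD of the floxed groups, 28.3 and 20.9 FPKM, was above that of the WT groups, 7.57 and 1.41, and the floxed groups overlapped both each other and their WT counterparts. *Bak1* (chr17:27019810-27029009, minus strand) measured 118, 94.2 and 95.4 FPKM in WT-GFP and 90.5, 88.4 and 78.1 in WT-Cre. It measured 112, 101 and 106 FPKM in Hoxa-flox and 65.9, 124 and 69.3 in Hoxa-del. Hoxa-del 2 was the highest of all libraries and the other Hoxa-del libraries the lowest. Hoxa-del minus Hoxa-flox was -0.35 ± 0.22 (log2, SE, adjusted p = 0.738, limma), and the sign differed between the sets, at -0.64 in set A and 0.22 in set B. For *Bax* the same difference was -0.12 ± 0.23 (adjusted p = 0.866), with -0.65 in set A and 0.18 in set B. Against WT-Cre, the log2 difference of *Bak1* was -0.34 with the 2 Hoxa-del libraries of set A and 0.53 with the 1 of set B. These are given as effect sizes only, as the latter rests on 1 Hoxa-del library. The ratio of *Bak1* to *Bax* was 1.66, 1.39 and 1.56 in the libraries of set B. It was 0.889, 1.15 and 0.700 in Hoxa-flox 3, Hoxa-del 1 and Hoxa-del 3.

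*Bcl2l11*, which encodes BIM, a BH3-only protein that binds all the pro-survival proteins (chr2:128126038-128162547, plus strand), measured 17.6, 14.1 and 14.0 FPKM in WT-GFP and 18.8, 15.2 and 14.9 in WT-Cre. It measured 9.25, 11.4 and 7.90 FPKM in Hoxa-flox and 15.3, 11.9 and 10.8 in Hoxa-del. All Hoxa-flox libraries were below all libraries of the WT groups, and Hoxa-del overlapped both Hoxa-flox and WT-Cre. *Bcl2l11* was lower in Hoxa-flox than in WT-GFP by a log2 difference of -0.64 ± 0.17 (SE, 95% interval -1.02 to -0.25, adjusted p = 0.0198, limma), and it was the 1 member of 9 called in that comparison, against 26.8% of all symbols tested (13.3% higher and 13.5% lower). The difference was -0.52 with the Hoxa-flox libraries of set B and -0.86 with that of set A. The call was lost without WT-GFP 1 or Hoxa-flox 1, with adjusted p up to 0.0836 over the alternatives run. Hoxa-del minus WT-Cre was -0.35 ± 0.17 (adjusted p = 0.170) and Hoxa-del minus Hoxa-flox was 0.38 ± 0.17 (adjusted p = 0.729), which did not pass.

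*Bbc3*, which encodes PUMA, a target of p53 (chr7:16308393-16318205, plus strand), measured 18, 15.4 and 14.8 FPKM in WT-GFP and 12.3, 8.10 and 13.1 in WT-Cre. It measured 13.1, 9.77 and 17.6 FPKM in Hoxa-flox and 14.1, 20.9 and 19.8 in Hoxa-del. The Hoxa-del libraries were all above the WT-Cre libraries, and the WT-Cre libraries all below the WT-GFP libraries. Hoxa-del minus WT-Cre was 0.67 ± 0.23 (log2, SE, 95% interval 0.15 to 1.18, adjusted p = 0.0553, limma), just outside the threshold. It came inside with equal upper quartiles (adjusted p = 0.044, limma) or with the 3 rows of *Bbc3* summed (0.0169). Over the alternatives run, its adjusted p ranged up to 0.203. The change with Cre in the floxed cells exceeded that in the WT cells by 0.94 (log2, unadjusted p = 0.016, adjusted p = 1, limma). *Bbc3* was the 1 member of 9 with an unadjusted p under 0.05 for this interaction, beside 2.46% of all symbols. Hoxa-del minus Hoxa-flox was 0.83 in set B and -0.07 in set A.

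*Pmaip1*, which encodes NOXA, a BH3-only protein with MCL1 as its main partner (chr18:66458533-66465565, plus strand), measured 16.9, 18.4 and 15.7 FPKM in WT-GFP and 18.8, 20.3 and 19.4 in WT-Cre. It measured 11.6, 14.1 and 19.0 FPKM in Hoxa-flox and 16.6, 14.7 and 22.5 in Hoxa-del. The WT-Cre libraries were above the WT-GFP libraries, and the floxed groups overlapped each other. The sets did not overlap, with 16.6 to 22.5 FPKM in set A and 11.6 to 14.7 in set B, the order opposite to that of *Mcl1*. A second *Pmaip1* row, at 7.08 to 15.8 FPKM, was not used. In that row the sets overlapped, and so did WT-GFP and WT-Cre, so both separations hold for the row used only. *Bid* (chr6:120891930-120916853, minus strand) encodes a protein that is cut by caspase 8 and links death receptors to the mitochondrion. It is overlapped by *Gm44260* on the same strand and by *Bcl2l13* on the other strand. *Bid* measured 22.5, 21.6 and 22.6 FPKM in WT-GFP and 20.2, 19.0 and 21.7 in WT-Cre. It measured 31.2, 29.7 and 28.2 FPKM in Hoxa-flox and 18, 28.1 and 25.9 in Hoxa-del. Every Hoxa-flox library was above every other library for *Bid*, but barely so at the closest, with 28.17 FPKM in Hoxa-flox 3 against 28.14 in Hoxa-del 2. Hoxa-flox minus WT-GFP was 0.40 ± 0.15 (log2, SE, adjusted p = 0.0789, limma), and Hoxa-del minus Hoxa-flox was -0.32 ± 0.15 (adjusted p = 0.729).

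The balance was taken as the summed FPKM of *Bcl2*, *Bcl2l1* and *Mcl1* divided by that of the 6 pro-death members. It was 0.641, 0.678 and 0.675 in WT-GFP and 0.653, 0.780 and 0.684 in WT-Cre. It was 0.878, 0.949 and 0.701 in Hoxa-flox and 0.785, 0.740 and 0.789 in Hoxa-del. The sum of the 6 pro-death members thus exceeded that of these 3 pro-survival members in all 12 libraries. With *Bcl2a1a*, *Bcl2a1d* and *Bcl2l2* added to the pro-survival sum and *Bad* and *Bmf* to the pro-death sum, the ratio passed 1 in 5 of the 12, at 1.16 in WT-Cre 2, 1.01 and 1.10 in Hoxa-flox 1 and 2, and 1.17 and 1.11 in Hoxa-del 1 and 3. The group means were 0.665 ± 0.0205, 0.706 ± 0.0662, 0.843 ± 0.128 and 0.771 ± 0.0270 (SD, n = 3). Hoxa-flox lay above WT-GFP without overlap, while Hoxa-del overlapped both WT-Cre and Hoxa-flox. The 2 highest values were those of Hoxa-flox 1 and 2, both of set B, but Hoxa-del 2 of the same set was the lowest of its group. No test was made of this ratio, whose members were chosen with earlier results known.

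The order of the groups depended on which members entered the sums. Against *Bax* and *Bak1* alone the means, in the same order of groups, were 0.898 ± 0.0394, 0.985 ± 0.0768, 1.14 ± 0.194 and 1.12 ± 0.0945. Against the 4 BH3-only genes they were 2.56 ± 0.0543, 2.50 ± 0.358, 3.22 ± 0.319 and 2.50 ± 0.222. Without *Mcl1*, the ratio to all pro-death members was 0.0780 ± 0.00505 in Hoxa-flox against 0.0932 ± 0.00267 in WT-GFP, the opposite order. It was 0.117 ± 0.0255 in WT-Cre and 0.0922 ± 0.0225 in Hoxa-del. As *Mcl1* made up most of the pro-survival sum, what remains is mainly *Bcl2l1*. As a difference of mean log2(FPKM + 1), which weighs members alike, Hoxa-flox stayed above WT-GFP (-0.475 ± 0.0473 and -0.604 ± 0.0606). What the Hoxa-flox excess rests on was not tested. *Mcl1* per *Bcl2l11* was 21.2, 18.4 and 23.2 in Hoxa-flox, above every other library, and between 7.30 and 15.8 elsewhere. *Mcl1* per *Pmaip1* was 16.9 and 14.8 in Hoxa-flox 1 and 2 and 12.8 in Hoxa-del 2, the libraries of set B, and between 6.84 and 9.82 in all others.

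**Figure D2:**
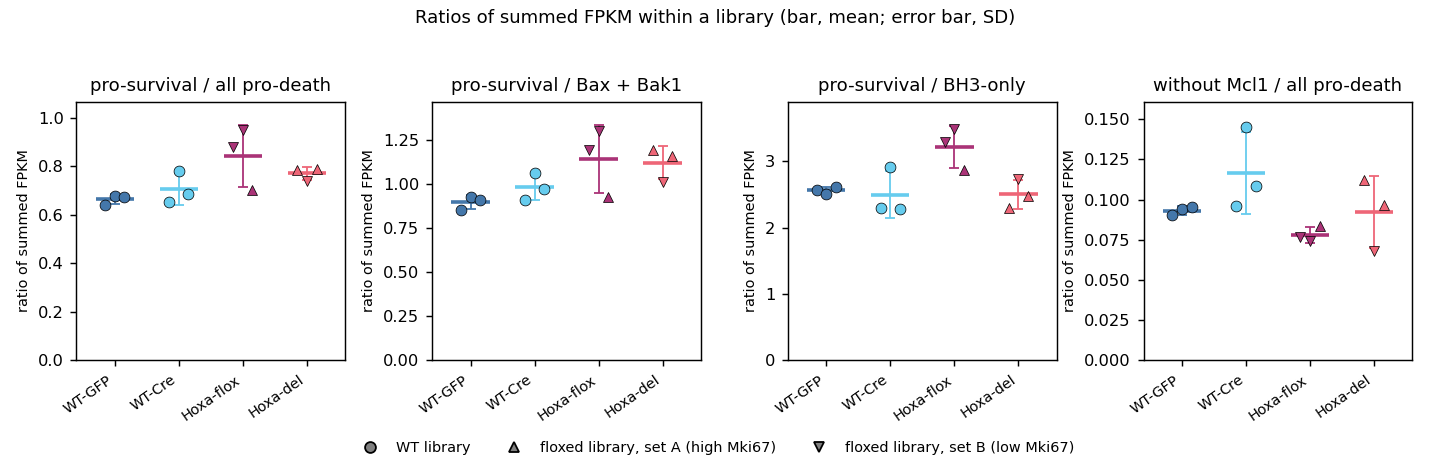
Ratio of summed pro-survival FPKM to all pro-death members, to the effectors, to the BH3-only genes and, without *Mcl1*, to all pro-death members (y axes, from 0) by group (x axis). Symbols are libraries as in the plot of levels, bars are means and error bars SD of n = 3. Hoxa-flox has the highest mean in the first 3 panels and the lowest in the panel without *Mcl1*.

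Cre in the floxed cells, the comparison that addresses loss of the Hoxa cluster, called 0 of 9 members (limma, adjusted p of 0.729 to 0.991), against 0.0304% of all symbols (0.00759% higher and 0.0228% lower). None of the 9 had an unadjusted p under 0.05 either (0 members). The log2 differences ran from -0.35 for *Bak1* to 0.43 for *Bbc3*, with a median of 0.01 against -0.06 over all symbols tested. *Bid* was the 1 member whose groups did not overlap, lower in Hoxa-del, against 6.39% of symbols in either direction (2.25% higher and 4.14% lower). The margin was narrow, 28.14 FPKM in Hoxa-del 2 against 28.17 in Hoxa-flox 3. The intervals were wide: that of *Bcl2* ran from -0.23 to 1.02 and that of *Bcl2l11* from -0.01 to 0.76.

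Cre in the WT cells, the control for the recombinase itself, called 0 of 9 members (limma, all adjusted p = 1), against 0.0152% of all symbols, with 0 members at an unadjusted p under 0.05. The differences ran from -0.51 for *Bbc3* to 0.19 for *Pmaip1*, with a median of -0.13 against -0.03 over all symbols. The groups did not overlap for 5 of 9 members, *Mcl1*, *Bax*, *Bak1* and *Bbc3* lower and *Pmaip1* higher in WT-Cre, against 25.7% of all symbols (9.31% higher and 16.3% lower). For *Pmaip1* this holds for the row used, not for its second row. For the interaction of Cre and genotype 0 of 9 members were called, against 0.00759% of symbols.

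Between the genotypes with the control virus, 1 member of 9 was called, *Bcl2l11*, against 26.8% of all symbols (13.3% higher and 13.5% lower). The median difference was -0.20 against 0.00 over all symbols. Groups did not overlap for 3 of 9 members, *Bcl2l11* lower and *Mcl1* and *Bid* higher in Hoxa-flox, against 47.2% of symbols (23.9% higher and 23.3% lower). Between the genotypes with Cre, 0 of 9 members were called (limma, lowest adjusted p = 0.0553), against 27.2% of symbols (13% higher and 14.2% lower). An unadjusted p under 0.05 was found for 2 of 9 members, against 38.6% of all symbols. The median difference was -0.05 against 0.00. Groups did not overlap for 2 of 9, *Bbc3* higher and *Bcl2l1* lower in Hoxa-del, against 41.3% of symbols (20.7% higher and 20.7% lower). The counts differed when the floxed libraries of 1 set only were used, fits chosen after the data were seen. With set B, 6 members were called in Hoxa-flox against WT-GFP and 5 in Hoxa-del against WT-Cre, where 56.4% and 57.6% of all symbols were called. With set A, 1 and 2 were called, where 42.7% and 45.7% of all symbols were. The Hoxa-del group of set B and the Hoxa-flox group of set A are then 1 library each, assumed to vary like the other groups, and the cause of the changed counts was not tested. Genotype, strain label and leukemia of origin cannot be told apart here.

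**Figure D3:**
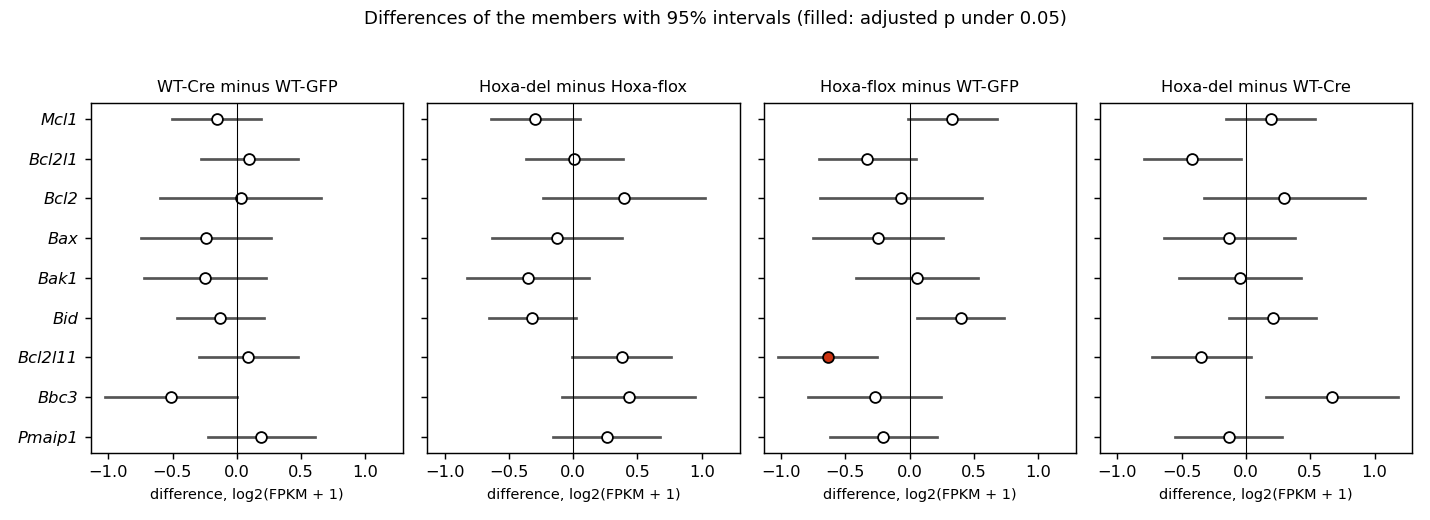
Difference of each of the 9 members in 4 comparisons (x axes, log2(FPKM + 1)), with points for the estimate and lines for its 95% interval from limma. The filled point, *Bcl2l11* in Hoxa-flox minus WT-GFP at -0.64, is the 1 call.

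Outside the members, 16 other BCL2 family genes were listed, of which 14 had a row and 10 passed the filter. *Hrk* and *Bcl2l15* had no row, and *Bok*, *Bik*, *Bcl2l10* and *Bcl2a1c* stayed under the filter. In each comparison of genotypes 2 of the 10 were lower in the floxed cells and 1 was higher (limma), 3 of 10 in all, beside 26.8% of all symbols (27.2% in the Cre-treated cells), and 0 were called with Cre in either genotype.

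The 2 lower genes were *Bcl2a1a* and *Bcl2a1d*, near-identical copies of *Bcl2a1b* that encode the pro-survival protein A1. *Bcl2a1a* (chr9:88956900-88962419, plus strand) measured 22.0, 21.7 and 21.3 FPKM in WT-GFP and 21.6, 29.0 and 20.4 in WT-Cre. It measured 0.412, 0 and 0.829 FPKM in Hoxa-flox and 0.177, 0.214 and 0.895 in Hoxa-del. *Bcl2a1d* (chr9:88723285-88731914, minus strand) measured 4.79 to 6.80 FPKM in the WT libraries and 0 to 0.505 in the floxed libraries. Every floxed library was below every WT library for both genes, in both sets. Of all symbols, 14.1% were lower without overlap in the 6 floxed than in the 6 WT libraries, and 12.9% higher. These levels stand for about 93.2 to 325 fragments of *Bcl2a1a* in WT libraries and 0 to 11 in floxed libraries. The log2 differences of *Bcl2a1a* were -4.05 ± 0.25 for Hoxa-flox minus WT-GFP (SE, adjusted p = 5.98e-07, limma) and -4.13 ± 0.25 for Hoxa-del minus WT-Cre (adjusted p = 4.87e-07). Those of *Bcl2a1d* were -2.25 ± 0.21 (adjusted p = 1.52e-05) and -2.43 ± 0.21 (adjusted p = 8.31e-06).

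The copies can share fragments. The coding sequences have 519 bases each, and *Bcl2a1b* (chr9:89199209-89207827, plus strand) matches *Bcl2a1a* at 97.9% and *Bcl2a1d* at 98.8% of bases. Of the 75-base windows of the *Bcl2a1a* transcript, 53.8% also occur in *Bcl2a1d* and 25.6% in *Bcl2a1b*, so the split of fragments among the copies is uncertain. How the counting treated such fragments is not given in the sources used here. The promoters are shown because the copies with a row were low together. They come from RefSeq (GRCm38.p6), and capitals mark GAGGAAGT, a core bound by the myeloid factor PU.1, which was searched on both strands.
Bcl2a1a, chr9:88956764-88956853, plus strand: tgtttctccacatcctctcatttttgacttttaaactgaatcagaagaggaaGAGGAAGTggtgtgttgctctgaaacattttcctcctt
Bcl2a1b, chr9:89199073-89199162, plus strand: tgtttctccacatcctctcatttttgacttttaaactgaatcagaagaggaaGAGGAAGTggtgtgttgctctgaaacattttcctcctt
Bcl2a1d, chr9:88731917-88732006, minus strand: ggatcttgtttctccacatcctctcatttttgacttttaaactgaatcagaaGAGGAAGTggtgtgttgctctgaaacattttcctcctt
The stretch is the same in *Bcl2a1a* and *Bcl2a1b*, and the shorter run GAGGAA occurs in it 2 times in these and 1 time in *Bcl2a1d*. The 8-base core is in 2.44% of 32851 promoter windows of 250 bases. *Spi1*, which encodes PU.1, measured 285 ± 25 FPKM (WT-GFP), 235 ± 10.9 (WT-Cre), 201 ± 47.6 (Hoxa-flox) and 188 ± 35.8 (Hoxa-del, SD, n = 3). It was not called in either comparison of genotypes (limma, adjusted p = 0.0712 and 0.235). Every Hoxa-flox library (148 to 239 FPKM) was below every WT-GFP library (269 to 314), as for 23.3% of all symbols. Hoxa-del overlapped WT-Cre. A part of *Spi1* in the levels of the copies was not tested.

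Most markers of mature myeloid cells were lower in the floxed cells too. Of the 5 macrophage markers 4 were called lower (limma) in each floxed group, beside 13.5% of all symbols in Hoxa-flox and 14.2% in Hoxa-del. These were *C1qa*, *C1qb*, *C1qc* and *Msr1*, all near 0 in the floxed cells. The list summed to 168 to 206 FPKM in WT libraries, 43.0 to 99.9 in Hoxa-flox and 29.3 to 96.0 in Hoxa-del. The fifth, *Adgre1*, measured 41.1 to 48.2 FPKM in the WT libraries, 95.3 to 99.4 in set B and 29.2 to 42.9 in set A, and was not called. Of the 5 neutrophil markers 4 were called lower in each (*Camp*, *Ltf*, *Mmp8* and *Fcnb*), beside the same shares of all symbols. Their list summed to 271 to 378, 6.50 to 68.9 and 6.71 to 43.5 FPKM in the same order. The fifth, *Ly6g*, measured 1.28 to 4.03 FPKM in the WT libraries, 17.7 to 30.8 in set B and 1.40 to 1.95 in set A, and was not called (adjusted p = 0.130 and 0.718, limma). Their part in the results was not tested. In such bulk samples fewer cells of a type and less RNA per cell cannot be told apart.

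With the 2 copies added to the pro-survival sum, the balance averaged 0.763 ± 0.0282 for WT-GFP and 0.832 ± 0.0903 for WT-Cre, against 0.845 ± 0.126 for Hoxa-flox and 0.775 ± 0.0293 for Hoxa-del (SD, n = 3). Hoxa-flox then overlapped WT-GFP, at 0.880, 0.950 and 0.705 against 0.731, 0.782 and 0.776. The mean of Hoxa-del was then below that of WT-Cre.

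*Bnip3*, which encodes a mitochondrial protein with a BH3-like region that acts in mitophagy, was the higher gene. It measured 7.19 to 8.57 FPKM in the WT libraries, 48.8, 47.2 and 25.9 in Hoxa-flox and 42.2, 55.2 and 18.2 in Hoxa-del. All floxed libraries were above all WT libraries, set B highest. The log2 differences were 2.16 ± 0.35 (SE, adjusted p = 0.000891, limma) and 2.06 ± 0.35 (adjusted p = 0.00127). *Bmf*, a BH3-only gene, measured 2.58 to 5.94 FPKM in the WT libraries, 24.4, 20.4 and 3.83 in Hoxa-flox and 7.38, 25.4 and 2.80 in Hoxa-del. The libraries of set B stood at 20.4 to 25.4 FPKM, those of set A at 2.80 to 7.38, within or just above the WT range, and neither comparison passed (adjusted p = 0.162 and 0.397). *Bcl2l2*, the pro-survival gene that encodes BCL-W (overlapped on the same strand by *Gm20521*), lay between 76.0 and 103 FPKM in all libraries. It was the second pro-survival gene by level after *Mcl1* and was not called in any comparison. *Bad*, *Bcl2l12*, *Bcl2l13*, *Bcl2l14* and *Bnip3l* were not called either. Among them *Bcl2l14* came nearest, at 9.93 ± 2.27 FPKM in Hoxa-flox, against 5.79 ± 0.469 in WT-GFP (SD, n = 3, adjusted p = 0.0549).

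**Figure D4:**
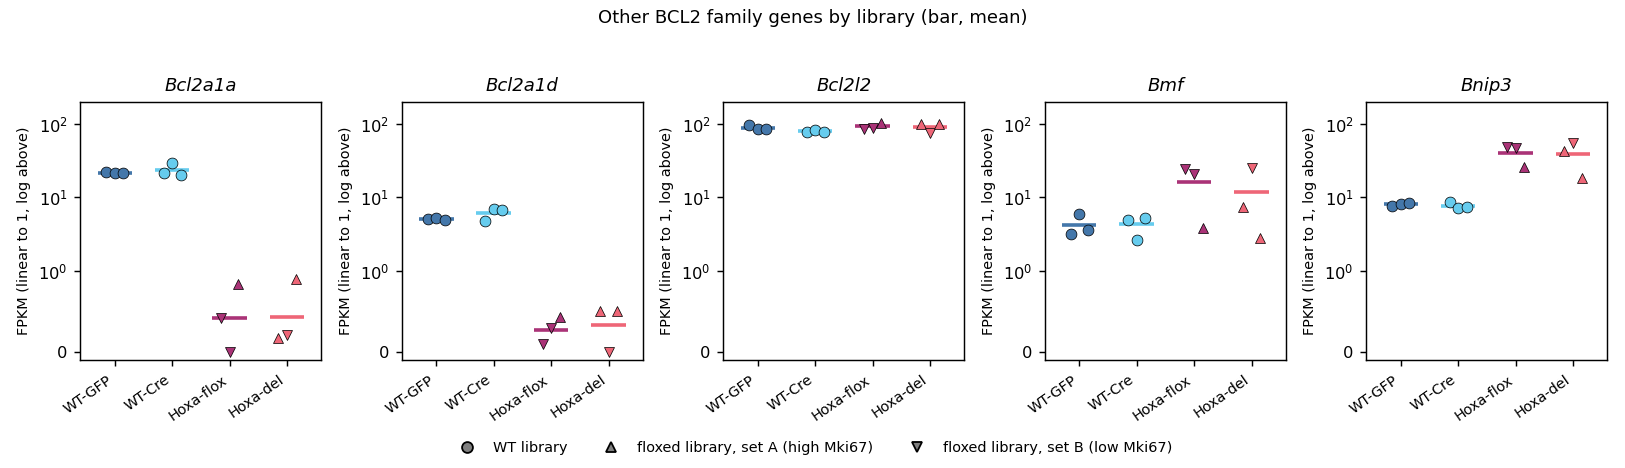
Level of 5 other family genes in FPKM (y axis, linear up to 1 and logarithmic above) by group (x axis). Symbols are libraries as in the plot of levels and bars are means of 3. *Bcl2a1a* and *Bcl2a1d* are under 1 FPKM in all 6 floxed libraries, and *Bmf* is above 20 FPKM in the 3 libraries of set B.

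Downstream of the family, cytochrome c released from mitochondria assembles the apoptosome, which activates caspases. Of 14 apoptosome and caspase genes tested, 5 were higher and 0 lower in Hoxa-flox than in WT-GFP, and 4 were higher and 1 lower in Hoxa-del than in WT-Cre (limma). Of all symbols, 13.3% were called higher and 13.5% lower in the former comparison, and 13% and 14.2% in the latter. *Casp6*, an executioner caspase, measured 22.8 ± 3.39 FPKM in Hoxa-flox, against 9.27 ± 0.429 in WT-GFP (SD, n = 3, log2 difference 1.21, adjusted p = 0.000692). *Casp2* measured 34.1 ± 2.95 FPKM, against 18.6 ± 0.982 (0.84, adjusted p = 0.000438). *Vdac1*, a channel of the outer mitochondrial membrane, and *Dffa*, the inhibitor of the caspase-activated nuclease, were higher by 0.57 and 0.62. The median of the list was 0.26 in both comparisons, against 0.00 over all symbols.

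Of 8 genes of the inhibitors of apoptosis and their antagonists, 1 was higher and 1 lower in Hoxa-flox than in WT-GFP, and 2 were higher and 2 lower in Hoxa-del than in WT-Cre. The 2 of 8 with the control virus are close to the 26.8% of all symbols called there (27.2% with Cre). *Diablo*, whose protein SMAC leaves mitochondria to block these inhibitors, measured 18 ± 3.56 FPKM in Hoxa-flox, against 10.4 ± 1.17 in WT-GFP (SD, n = 3, log2 difference 0.73, adjusted p = 0.00436, limma). *Xiap*, the inhibitor of caspases 3, 7 and 9, measured 8.35 ± 2.91 FPKM, against 17.3 ± 2.25 (-1.01, adjusted p = 0.0197). In Hoxa-del *Xiap* was 15.3, 7.61 and 15.5 FPKM, again low in the library of set B. Of 9 death receptor genes, 1 was higher and 2 lower in each comparison of genotypes, 3 of 9 beside the same 26.8% and 27.2% of all symbols. In Hoxa-flox against WT-GFP these were *Casp8*, the initiator caspase that cuts BID, by 0.47, and *Ripk1* and *Cflar* by -0.43 and -0.63.

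Of 20 genes upstream of the family (regulators of its transcription and of MCL1 stability), 6 were higher and 1 lower in Hoxa-flox than in WT-GFP, and 7 were higher and 0 lower in Hoxa-del than in WT-Cre. This is 7 of 20 in each, beside 26.8% and 27.2% of all symbols. *Pim1*, a survival kinase that phosphorylates BAD, measured 68.1 ± 3.46 and 61.4 ± 2.27 FPKM in WT-GFP and WT-Cre, and 258 ± 52.5 and 235 ± 65.9 in Hoxa-flox and Hoxa-del (SD, n = 3). It was higher in both comparisons, by 1.88 and 1.89 (log2, adjusted p = 4.74e-05 and 5.13e-05, limma). *Usp9x*, the deubiquitinase that stabilises MCL1, measured 842 ± 206 FPKM in Hoxa-flox, against 252 ± 21.3 in WT-GFP (1.71, adjusted p = 0.0007). Whether its row also holds fragments of other genes was not tested. *Nfkb1* and *Pim3* were higher by 0.61 and 0.71. *Trp53*, which encodes the p53 that activates *Bbc3*, *Pmaip1* and *Bax*, was called in Hoxa-del against WT-Cre (0.54, adjusted p = 0.0222, limma). It measured 50.2 ± 8.12 FPKM against 34.0 ± 3.89 there. In Hoxa-flox it measured 51.4 ± 7.03 FPKM, against 39.8 ± 1.93 in WT-GFP. *Mdm2*, of the same list, had lower means in the floxed cells. It measured 47.4 ± 17.1 FPKM in Hoxa-del against 66.5 ± 6.27 in WT-Cre. In Hoxa-flox it measured 36.0 ± 11.5 FPKM, against 61.4 ± 5.72 in WT-GFP. A part of p53 in the *Bbc3* levels was not tested.

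Of 7 tested receptors for the cytokines in the medium and related survival factors, 2 were higher and 2 lower in Hoxa-flox than in WT-GFP, and 1 was higher and 2 lower in Hoxa-del than in WT-Cre, again beside 26.8% and 27.2% of all symbols. *Kit*, the receptor for SCF, measured 5.25 ± 0.234 and 4.05 ± 0.211 FPKM in WT-GFP and WT-Cre, and 35.3 ± 3.20 and 31.1 ± 5.99 in Hoxa-flox and Hoxa-del (SD, n = 3). It was higher by 2.54 and 2.65 (log2, adjusted p = 3.83e-07 and 2.60e-07, limma). *Il6ra* was lower, at 6.15 ± 2.33 FPKM in Hoxa-flox, against 17.6 ± 1.11 in WT-GFP (-1.43, adjusted p = 0.000607), and so was *Csf2ra*, the GM-CSF receptor, at 106 ± 45.4 against 237 ± 26.8 (-1.25, adjusted p = 0.0104). *Il6st* was higher by 0.46. With Cre in either genotype and for the interaction, 0 genes of these 5 lists were called (limma). Of their 58 tested genes, 2 had an unadjusted p under 0.05 with Cre in the floxed cells, 1 with Cre in the WT cells and 1 for the interaction, beside 6.27%, 2.37% and 2.46% of all symbols.

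Among the members themselves the closest pair over the 12 libraries was *Mcl1* and *Bid*, with Pearson's r of 0.93 on the log2(FPKM + 1) scale. It was 0.98 over the 6 floxed libraries and 0.35 over the 6 WT libraries. *Bcl2l11* ran opposite to both over the 12 libraries, at -0.72 with *Mcl1* and -0.81 with *Bid*. *Bcl2* and *Bak1* had -0.75. Outside the family lists, the genes most like *Bcl2* over the 12 libraries were *Clec2e*, *Smc5* and *Cep192* (r of 0.97, 0.96 and 0.96). Those most like *Mcl1* were *Dpp3*, *Ints9* and *Acly* (0.96 each), and those most like *Bcl2l11* were *4931422A03Rik*, *Tnfaip3* and *Mbd6* (0.93, 0.93 and 0.92). These are descriptions with no test: the points share the genotype and the library sets.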

How the data were processed

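Total RNA was extracted with TRIzol, depleted of ribosomal RNA, made into stranded libraries and sequenced on a NextSeq 500, per the labels' protocols. STAR, Cufflinks and Cuffdiff 2.2.2.20150701 are named per the submitters' processing notes, with GRCm38 and mm10. The authors' table has 28042 rows; its unit is not stated, and the deposited values were taken as FPKM, the unit Cufflinks gives. For 1855 repeated symbols the row with the highest mean was used. Depth was estimated from what 1 fragment is worth in low genes. Its counting error covers sampling only.

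The 13169 symbols whose mean reached 1 FPKM entered a single limma model (limma-trend, version 3.58.1, under R 4.3.3) of log2(FPKM + 1) over the 4 groups. P-values were adjusted by Benjamini and Hochberg over all symbols, and 0.05 was the threshold. The added 1 makes log2 differences of low genes too small. The spread was pooled over groups. The members, lists, library sets and tests were chosen with earlier results of these data known. Named were the members, the other family genes with a row, up to 4 called genes with the smallest adjusted p from each list in Hoxa-flox against WT-GFP, and called genes with Cre (none). *Bnip3*, *Bmf* and *Bcl2l2* were singled out among the other family genes, and *Trp53* and *Mdm2* were added, after their values were seen. Same-numbered libraries did not deviate together throughout (correlations from -0.301 to 0.721), so numbers were not taken as pairs. The fit was tested on simulated data. Alternatives were another pseudocount, no filter, other scalings, array weights, fewer groups, a replicate term, summed rows, each library left out and a term for the sets. Fits with 1 set only, and balances with other members, were added after seeing the data.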

Additional observations from a re-analysis of the deposited data

How the results depend on the processing

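Of 729 values recomputed for the members under the alternatives, 660 kept their direction and their side of the threshold. With their direction kept, 32 newly passed it and 2 lost it (*Bcl2l11* in Hoxa-flox minus WT-GFP). The other 35, of differences not called in the main fit, changed sign, and 0 called differences did. The 35 were counted by sign alone, and those that also passed the threshold were not counted apart. The number of members called changed in these cases. Array weights, whose estimate stopped before converging and which fell to 0.0967 for Hoxa-flox 3 and 0.0881 for Hoxa-del 2, gave 6 for Hoxa-del minus Hoxa-flox, 2 for the interaction and 8 for Hoxa-flox minus WT-GFP, where 39.3%, 26.2% and 69.8% of all symbols were called. A fit of only the 2 groups compared gave 2 for Hoxa-flox minus WT-GFP (*Bcl2l11* and *Bid*), where 27.9% of all symbols were called. For Hoxa-del minus WT-Cre, equal upper quartiles gave 1 and summed rows gave 1, *Bbc3* in each. There 28.1% and 27.5% of all symbols were called. With set B only the counts were 6 for Hoxa-flox minus WT-GFP and 5 for Hoxa-del minus WT-Cre; with set A only the latter was 2. Hoxa-del in set B is 1 library. Leaving out 1 library at a time gave 0 to 1 for Hoxa-del minus Hoxa-flox (1, *Bak1*, without Hoxa-del 2, where 5.98% of all symbols were called). It gave 0 to 2 for Hoxa-del minus WT-Cre (2, *Bbc3* and *Bid*, without Hoxa-del 1, where 28.5% were called). For Hoxa-flox minus WT-GFP it gave 0 to 1 (0 without WT-GFP 1 or Hoxa-flox 1, where 20% and 21% were called). It gave 0 for the others. The replicate block changed no count of called members: 1 for Hoxa-flox minus WT-GFP and 0 for the other comparisons. Nor did the set as a term, with 0 for both contrasts it was used in. The cause of these changes was not tested.

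The mean balance in WT-GFP, WT-Cre, Hoxa-flox and Hoxa-del was 0.0932, 0.117, 0.0780 and 0.0922 without *Mcl1*. As a difference of mean log2(FPKM + 1) it was -0.604, -0.471, -0.475 and -0.483. With *Bcl2a1a*, *Bcl2a1d*, *Bcl2l2*, *Bad* and *Bmf* added it was 0.978, 1.04, 1.02 and 1.04. With only the *Bcl2a1* copies added it was 0.763, 0.832, 0.845 and 0.775, and with summed rows 0.6305, 0.667, 0.797 and 0.7172. Leaving out 1 library gave 0.658 to 0.676, 0.669 to 0.732, 0.790 to 0.914 and 0.763 to 0.787. Depth limits *Bcl2* and *Bbc3* most, with counting errors of 17.0% and 13.2% in WT-Cre 2.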
